A study of Mus musculus with 2 samples.

Results

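The genes described here encode the machinery that makes ribosomes: 52 mouse genes for nucleolar assembly factors and for RNA polymerase I (Pol I) and its partners, chosen by symbol from a table of 54532 gene identifiers. All 52 had a row, and they were split by the known role of the protein into 7 genes of the snoRNP core, 19 of the small subunit processome, 14 large subunit factors, 5 helicases and 7 genes of Pol I transcription. Their transcripts were counted by bulk RNA-seq in primary CD8+ T cells from the spleens of wild-type mice, which the labels call ND mice. The cells were cultured for 8 h in RPMI 1640 without methionine or, for comparison, in complete RPMI 1640, with 1 library per medium. The labels do not say which strain, age or number of mice was used, how the cells were purified or whether they had been stimulated. With 1 library per medium there is no replicate check, so no p-value is given and a gene is called higher or lower by size alone.

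Ribosomes are assembled in the nucleolus. Pol I transcribes the ribosomal DNA into a long precursor RNA, small nucleolar RNPs (snoRNPs) modify it, and the small subunit processome, the large subunit factors and ATP-driven RNA helicases fold and cleave it into the subunit RNAs. Activated T cells are known to enlarge their nucleoli and to make many of these factors, often under the control of the transcription factor MYC. Methionine is both a building block of every new protein and the source of the methyl groups that snoRNPs and other enzymes place on ribosomal RNA.

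The methionine-free library held 19647681 counts over 18374 detected genes, and the complete-medium library 14646527 counts over 19110. The CD8 co-receptor gene Cd8a was at 527 CPM without methionine and 664 CPM in complete medium, and none of 6 CD8 T cell markers was past 1.5-fold (CPM, counts scaled to a fixed library total). Of 21 markers of other blood cells, Klrb1c and Pf4 were at 0 in both libraries. Of the 13 with enough counts 3 were at least 1.5-fold higher and 4 lower, or 23.1% and 30.8%. Among all genes with enough counts 15.7% were higher and 18.0% lower. Of 5 B cell markers 3 were lower. Of 4 macrophage, monocyte and dendritic cell markers 2 were higher, and all 4 had a ratio above 1. The 2 red cell and platelet markers with enough counts went 1 each way. The summed level of the 21 was 218 CPM without methionine and 269.5 CPM in complete medium. Most of that sum was the immunoglobulin gene Ighm, at 120 CPM without methionine and 196 CPM in complete medium. A list of 26 cell cycle genes was at 1835 CPM in sum without methionine and 6869 CPM in complete medium, and all 26 were at least 1.5-fold lower. The part that these cell cycle and marker differences play in the values of the ribosome biogenesis genes was not tested. In bulk RNA, fewer cells of a type and less RNA per cell cannot be told apart, and CPM is a share of a library, not an amount per cell.

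Most transcripts of the ribosome biogenesis genes were slightly higher without methionine, and none was far lower. Of the 52 genes, 51 averaged 10 counts or more over the libraries, the minimum for a gene to be compared. Wdr74, a large subunit factor gene, had 0 counts in both media and is left out below. By counting error alone a count of 0 allows up to 0.153 CPM without methionine and 0.204 CPM in complete medium. Since every other gene of the 52 had many counts, this 0 is not read as a level: it may come from the annotation or the counting, which was not tested. The other 51 genes had mean counts between 1200 and 54659, so all of them also belong to the 3987 genes averaging 1000 counts or more, called abundant below. None of the 51 was at least 1.5-fold lower without methionine, whereas 18.0% of the 13041 compared genes and 9.71% of abundant genes were. At least 1.5-fold higher were 5 of the 51, or 9.80%, against 15.7% of all compared genes and 9.43% of abundant genes, so that share lay near the background. The ratio was above 1 for 40 of the 51, or 78.4%, against 52.4% of all compared genes and 56.2% of abundant genes. The 95% counting interval lay wholly above 1 for 34 of the 51, against 35.3% of all compared genes and 47.8% of abundant genes. It lay wholly below 1 for 6, against 31.5% and 36.4% of the same sets, and held 1 for 11. The intervals are exact and cover counting error only, not differences between cultures or animals. The median log2 difference, methionine-free minus complete medium, was 0.25, against 0.04 over all compared genes and 0.06 over abundant genes. Together the genes took 1.80% of the counts without methionine and 1.59% in complete medium.

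**Figure D1:**
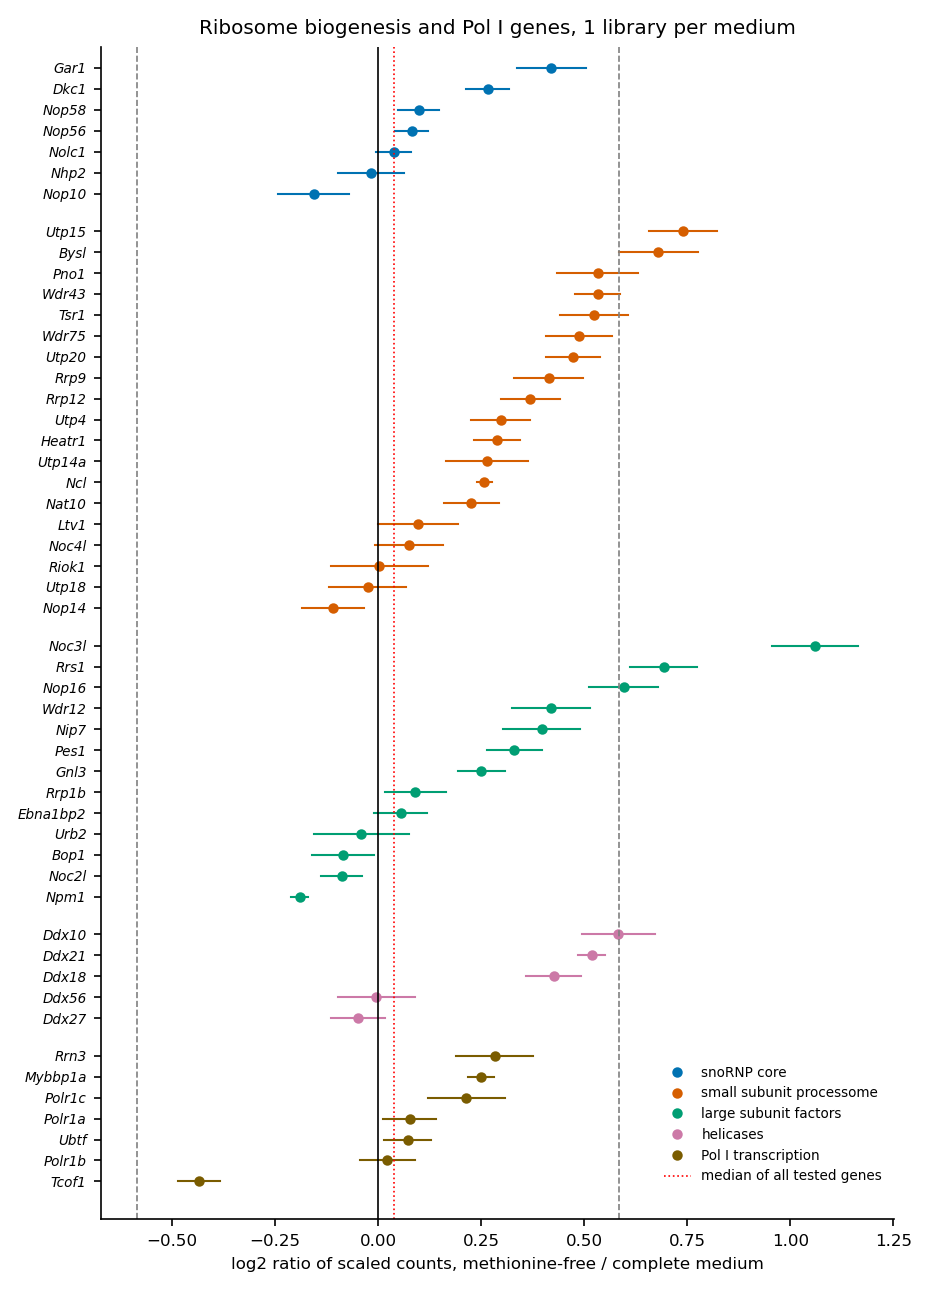
Log2 ratio of scaled counts, methionine-free over complete medium, for the 51 genes with counts, ordered within each role group. Points are the ratios of 1 library per medium, horizontal bars their 95% counting intervals, grey dashed lines mark 1.5-fold and the red dotted line the median of all compared genes, 0.04. Noc3l lies farthest right at 1.06 and Tcof1 farthest left at -0.44; no point is left of the lower dashed line.

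Compared per length, levels ran over a wide range. Per kilobase of annotated exon, the most abundant transcript was Npm1, which encodes the histone chaperone and large subunit export factor nucleophosmin, at 784 CPM per kb without methionine and 895 CPM per kb in complete medium. Ncl, the gene of nucleolin, which binds the precursor RNA early, followed at 337 CPM per kb without methionine and 282 CPM per kb in complete medium. Ddx21 and Mybbp1a came next in the methionine-free library, at 209 and 187 CPM per kb. The lowest by this measure was Riok1, a late small subunit kinase gene, at 7.41 CPM per kb without methionine and 7.39 CPM per kb in complete medium. The length joins the exons of all annotated transcripts: 9459 bases for Riok1, 10188 for Ncl and 2665 for Npm1. The order therefore depends on that length. In CPM without methionine, Ncl was at 3429 and Npm1 at 2090, and Riok1, at 70.1, was near Urb2, at 71.2. Ncl and Npm1 lay on opposite sides: Ncl was 1.20-fold higher (1.18 to 1.21) and Npm1 1.14-fold lower (1.12 to 1.16) without methionine. These 2 genes alone held 30.7% of the counts of all 52 genes without methionine and 33.0% in complete medium.

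**Figure D2:**
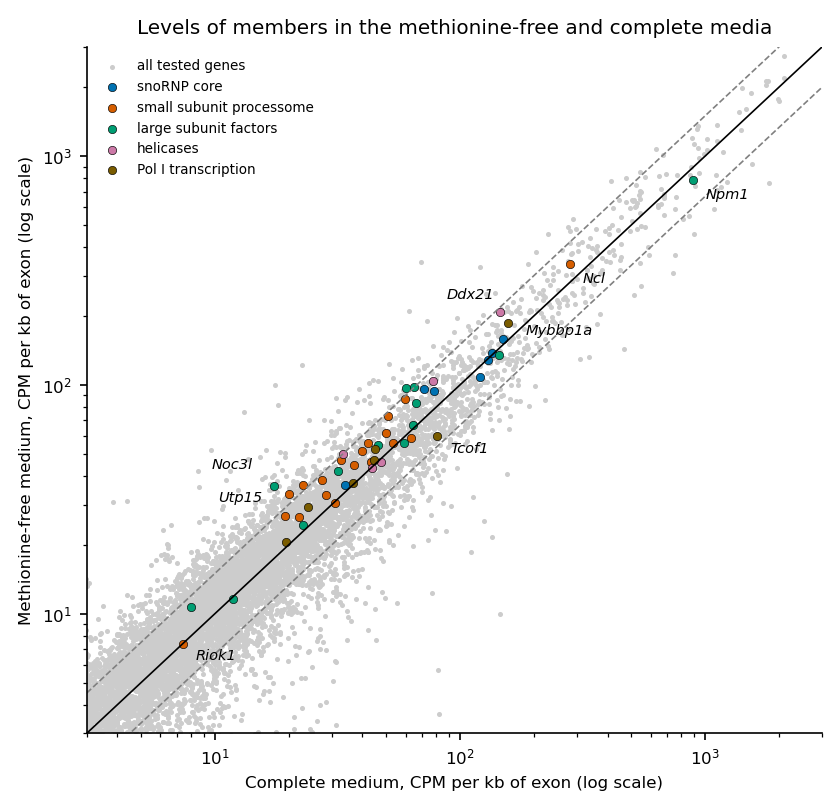
Level of each gene per kilobase of exon in the methionine-free library (vertical, log scale) against the complete-medium library (horizontal, log scale), 1 library each. Coloured points are the 51 ribosome biogenesis genes by role, grey points all compared genes, the solid line equal levels and the dashed lines 1.5-fold; most coloured points lie on or just above the solid line, from Riok1 at 7.41 to Npm1 at 784 CPM per kb without methionine.

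The snoRNP core genes stood nearly level between the media, with a median log2 difference of 0.08 and none of 7 past 1.5-fold. The genes of the box C/D scaffold proteins, which hold the 2′-O-methylation guides, differed little. Nop56 had 12714 counts (649 CPM) without methionine and 9010 (613 CPM) in complete medium, 1.06-fold higher (1.03 to 1.09). Nop58 had 7664 counts without methionine and 5368 in complete medium, 1.07-fold higher (1.03 to 1.11), and Nolc1, the gene of a snoRNP chaperone, was at a ratio of 1.03 whose interval, 0.997 to 1.06, held 1. The H/ACA genes, whose proteins form the pseudouridine-making particle, were spread more widely. Gar1 had 3217 counts without methionine and 1802 in complete medium, 1.34-fold higher (1.26 to 1.42). Dkc1, the gene of the pseudouridine synthase dyskerin itself, had 7583 counts without methionine and 4729 in complete medium, 1.20-fold higher (1.16 to 1.25). Their partners in the same particle were not higher: Nhp2 had 2880 counts without methionine and 2185 in complete medium, a ratio of 0.988 (0.934 to 1.05), and Nop10 had 2362 counts without methionine and 1974 in complete medium, 1.12-fold lower (1.05 to 1.18).

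Of the 19 small subunit processome genes 17 had a ratio above 1, or 89.5%, and the group's median log2 difference was 0.30. The share above 1 was 52.4% for all compared genes, 56.2% for abundant genes and 85.7% for the Pol I transcription genes described below. The processome is the large particle that gathers on the precursor RNA and releases the small subunit precursor. The group as listed here also holds genes of late small subunit factors, such as Riok1, Ltv1 and Tsr1. Utp15 (ENSMUSG00000041747, chromosome 13, 98246845 to 98263041, minus strand), which belongs to the UTP-A module that starts assembly, had 3829 counts (195 CPM) without methionine and 1718 (117 CPM) in complete medium, 1.67-fold higher (1.58 to 1.77). Bysl (ENSMUSG00000023988, chromosome 17, 47599331 to 47611492, minus strand), which encodes bystin, a small subunit maturation factor, had 2767 counts (141 CPM) without methionine and 1295 (88.2 CPM) in complete medium, 1.60-fold higher (1.499 to 1.71). These were the only 2 of the 19 past 1.5-fold, or 10.5%, against 15.7% of all compared genes and 9.43% of abundant genes. Utp15 and Bysl lay at percentiles where 10.9% and 12.8% of all compared genes had a higher log2 difference. Wdr43, another UTP-A gene, had 8096 counts without methionine and 4196 in complete medium, and Pno1, a late small subunit factor gene, had 2468 counts without methionine and 1279 in complete medium. Both were 1.45-fold higher, with intervals of 1.39 to 1.501 and 1.35 to 1.55. At the low end stood Nop14, with 3137 counts without methionine and 2537 in complete medium, 1.08-fold lower (1.02 to 1.14). Utp18, of the UTP-B module, had 2142 counts without methionine and 1634 in complete medium at a ratio of 0.983 (0.921 to 1.05), Riok1 had 1373 counts without methionine and 1027 in complete medium at 1.002 (0.924 to 1.09), and Noc4l, whose yeast counterpart pairs with that of Nop14, had 2847 counts without methionine and 2027 in complete medium at 1.05 (0.994 to 1.11). The intervals of these 3 held 1. Ncl had 67189 counts without methionine and 42129 in complete medium, the most of any of the 52 genes. Of the remaining 10, Ltv1 was at a ratio of 1.07 whose interval held 1 (0.999 to 1.14), and the other 9 were between 1.17-fold higher, for the rRNA acetyltransferase gene Nat10, and 1.44-fold higher, for the late factor gene Tsr1.

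Within this group, the UTP-A genes Utp4, Utp15, Wdr43, Wdr75 and Heatr1, together with Nol11 of the wider list, were all higher without methionine, with all 6 intervals above 1 and log2 differences from 0.18 to 0.74. The late small subunit factors Ltv1, Riok1, Bysl, Tsr1 and Pno1 had log2 differences from 0.00 to 0.68 and 3 of 5 intervals above 1. These modules were picked out after the values were seen. Intervals wholly above 1 were found for 34 of the 51 genes, 35.3% of all compared genes and 47.8% of abundant genes.

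The large subunit factors had the widest spread of the groups, from -0.19 to 1.06 on the log2 scale, with a median of 0.25. Of 13 compared, 3 were at least 1.5-fold higher, or 23.1%, against 15.7% of all compared genes and 9.43% of abundant genes. Noc3l (ENSMUSG00000024999, chromosome 19, 38788128 to 38819237, minus strand), whose yeast counterpart escorts large subunit precursors, was the only one of the 51 genes past 2-fold. It had 2827 counts (144 CPM) without methionine and 1016 (69.2 CPM) in complete medium, 2.09-fold higher (1.94 to 2.24), and 4.96% of all compared genes had a higher log2 difference. At least 2-fold higher were 5.80% of all compared genes, and 2.01% of abundant genes were. Rrs1 (ENSMUSG00000061024, chromosome 1, 9545408 to 9547455, plus strand), whose yeast counterpart helps bring in the 5S RNP, had 3903 counts without methionine and 1810 in complete medium, 1.62-fold higher (1.53 to 1.71). Nop16 (ENSMUSG00000025869, chromosome 13, 54584185 to 54590090, minus strand) had 3550 counts without methionine and 1761 in complete medium, 1.51-fold higher (1.43 to 1.60), and so lay just past the threshold. At the low end, Npm1 had 40959 counts without methionine and 35027 in complete medium, Noc2l, the partner of Noc3l in yeast, had 7614 counts without methionine and 6070 in complete medium, and Bop1 had 3222 counts without methionine and 2563 in complete medium. They were 1.14-fold, 1.06-fold and 1.06-fold lower, with intervals that just excluded 1 for Bop1 (1.01 to 1.12). Urb2 had 1395 counts without methionine and 1076 in complete medium at a ratio of 0.972 (0.897 to 1.05).

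Genes of one complex could differ. The proteins of Pes1, Bop1 and Wdr12 form the PeBoW complex of large subunit maturation. Wdr12 was 1.34-fold higher (1.25 to 1.43) and Pes1 1.26-fold higher (1.20 to 1.32), with Bop1 slightly lower as given above. Noc3l at 2.09-fold and Noc2l at a ratio of 0.940 were likewise apart. The remaining factors Nip7, Gnl3, which encodes the GTPase nucleostemin, Rrp1b and Ebna1bp2 were between 1.04-fold and 1.32-fold higher, and the interval of Ebna1bp2 held 1 (0.993 to 1.09).

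Among the 5 helicase genes 3 had intervals above 1 and 2 had intervals that held 1, with none past 1.5-fold and a median log2 difference of 0.43. Of abundant genes 47.8% had intervals wholly above 1 and 9.43% were at least 1.5-fold higher, so 5 genes say little beside these shares. Ddx10 had 3052 counts without methionine and 1527 in complete medium, 1.498-fold higher (1.41 to 1.59), and lay just under the threshold at 0.58 on the log2 scale; with upper-quartile scaling it passed it, at 0.59. Ddx21, whose protein links Pol I transcription and RNA processing, had 21224 counts (1083 CPM) without methionine and 11107 (756 CPM) in complete medium, 1.43-fold higher (1.40 to 1.47). Ddx18 had 5080 counts without methionine and 2834 in complete medium, 1.34-fold higher (1.28 to 1.41). Ddx27 had 4353 counts without methionine and 3378 in complete medium at a ratio of 0.966 (0.923 to 1.01), and Ddx56 had 2161 counts without methionine and 1625 in complete medium at 0.997 (0.934 to 1.06), so neither was told apart from level by its counts.

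The genes of Pol I transcription stood nearly level too, with a median log2 difference of 0.08 and none of 7 past 1.5-fold. The ratio was above 1 for 6 of the 7, or 85.7%, and 5 intervals lay wholly above 1. Among abundant genes 56.2% had a ratio above 1 and 47.8% an interval wholly above 1. At least 1.5-fold higher were 9.43% of abundant genes, and 9.71% were at least 1.5-fold lower. Polr1a, the gene of the largest catalytic subunit, had 4775 counts (244 CPM) without methionine and 3395 (231 CPM) in complete medium, 1.05-fold higher (1.01 to 1.10). Polr1b, the gene of the other catalytic subunit, had 4231 counts without methionine and 3123 in complete medium at a ratio of 1.02 (0.969 to 1.06). Ubtf, which encodes the factor that coats active ribosomal DNA, had 6011 counts without methionine and 4289 in complete medium, 1.05-fold higher (1.01 to 1.09). The remaining 4 genes lay farther from 1. Rrn3, whose protein TIF-IA makes Pol I competent to initiate, had 2476 counts (126 CPM) without methionine and 1526 (104 CPM) in complete medium, 1.22-fold higher (1.14 to 1.30). Polr1c, the gene of a subunit shared with Pol III, had 2340 counts without methionine and 1512 in complete medium, 1.16-fold higher (1.09 to 1.24), and Mybbp1a, a nucleolar regulator gene, had 21317 counts without methionine and 13444 in complete medium, 1.19-fold higher (1.16 to 1.21). Tcof1, the gene of treacle, a nucleolar scaffold of Pol I, went the other way and had the lowest ratio of the 51 genes. It had 6175 counts (315 CPM) without methionine and 6258 (426 CPM) in complete medium, 1.35-fold lower (1.31 to 1.40).

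Some of these counts are less certain. Transcripts of pseudogenes that match at least 300 bases at 95% identity or more exist for 6 of the 52 genes: Ddx18, Ddx21, Nop56, Npm1, Pes1 and Wdr12. The 3 Npm1 copies held 1331 counts without methionine and 1247 in complete medium, few beside those of Npm1 itself, but reads could be split among them. A gene with counts on the opposite strand overlaps 19 of the 52 genes, among them Bysl, Pno1, Dkc1 and Heatr1, and the labels do not say whether strand was used in counting. The partner of Bysl is Ccnd3, with 2130 counts without methionine and 3943 in complete medium. Noc3l, Utp15, Rrs1 and Nop16 have no such partner. Small RNA genes lie within 8 of the 52 genes, as many snoRNAs are spliced out of such hosts. Their 23 annotated small RNAs held 146 counts in all without methionine and 68 in complete medium, few beside the counts of the hosts.

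The wider pathway was mixed, with list medians from -0.28 for Pol II-specific subunits to 0.38 for other Pol I genes. In 5 further lists of ribosome biogenesis genes with no gene in common with the 52, 119 genes were compared. Of these, 21 were at least 1.5-fold higher, or 17.6%, near the 15.7% of all compared genes. None was at least 1.5-fold lower, against 18.0% of all compared genes, and the median log2 difference was 0.27. The lists were picked by knowledge of the pathway with earlier results of these data known. Other small subunit genes had 9 of 39 higher, or 23.1%, and a median of 0.31. Riok2, a late small subunit kinase gene, had 1661 counts without methionine and 690 in complete medium, 1.80-fold higher (1.65 to 1.97), and Dnttip2 had 4003 counts without methionine and 1679 in complete medium, 1.79-fold higher (1.69 to 1.89). Fcf1, whose yeast counterpart Utp24 is the endonuclease that cuts at the 5′ end of the small subunit RNA, had 1055 counts without methionine and 1121 in complete medium, 1.42-fold lower (1.30 to 1.54), and Pdcd11, the gene of the yeast Rrp5 counterpart, was 1.21-fold lower (1.15 to 1.27). Other large subunit genes had 9 of 46 higher, or 19.6%, and a median of 0.34. Tma16 had 1771 counts without methionine and 516 in complete medium, 2.57-fold higher (2.33 to 2.84), and Rrp15 had 2671 counts without methionine and 1047 in complete medium, 1.91-fold higher (1.78 to 2.06). Nol9, an RNA kinase gene, and Pelp1, its partner in a large subunit complex, were each 1.13-fold lower (1.07 to 1.20 and 1.06 to 1.20).

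Other snoRNP and assembly genes lay on the other side, with a median of -0.16. None of 12 was past 1.5-fold either way, against 15.7% higher and 18.0% lower among all compared genes. Ruvbl2, an ATPase of the R2TP chaperone that builds snoRNPs, was at 194 CPM without methionine and 273 CPM in complete medium, 1.41-fold lower (1.35 to 1.47). Pih1d1, of the same chaperone, was 1.44-fold lower (1.28 to 1.62). Znhit6, a box C/D assembly factor gene, was 1.30-fold higher (1.17 to 1.44), and Tgs1, whose protein hypermethylates the caps of some snoRNAs, 1.25-fold higher (1.16 to 1.35). Fbl, the gene of the box C/D methyltransferase fibrillarin, which was named after its value was seen, had 8963 counts without methionine and 5927 in complete medium, 1.13-fold higher (1.10 to 1.17). Among other nucleolar helicases 1 of 11 was past 1.5-fold, Dhx33 at 1.52-fold higher (1.42 to 1.63), and the median was 0.14. That 1 gene was 9.09% of the list, against 15.7% at least 1.5-fold higher among all compared genes. Ddx24 was 1.22-fold higher (1.16 to 1.29), and Dhx37 and Ddx47 were each 1.16-fold lower (1.07 to 1.25 and 1.09 to 1.23).

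The polymerases could be set side by side. Other Pol I subunits and factors had 2 of 11 genes at least 1.5-fold higher, or 18.2%, against 15.7% of all compared genes. The list median was 0.38. Taf1a, of the promoter selectivity factor SL1, had 713 counts without methionine and 289 in complete medium, 1.85-fold higher (1.61 to 2.13), and Cd3eap, the gene of a Pol I-specific subunit, had 1073 counts without methionine and 515 in complete medium, 1.56-fold higher (1.40 to 1.74). Polr1d, shared with Pol III, was 1.24-fold lower (1.16 to 1.32), and Polr1e, another Pol I subunit gene, had a ratio of 0.917 whose interval held 1 (0.821 to 1.02). Pol III-specific subunits had a median of 0.29 with 1 of 11, or 9.09%, higher. That was Polr3d, with 1743 counts without methionine and 664 in complete medium, 1.97-fold higher (1.80 to 2.15), with Crcp at 1.46-fold higher (1.30 to 1.65). Polr3c was 1.44-fold lower (1.33 to 1.57) and Polr3k 1.16-fold lower (1.06 to 1.27). Pol II-specific subunits had a median of -0.28, with 2 of 7 lower and 1 higher. These were 28.6% and 14.3%, against 18.0% and 15.7% of all compared genes. Polr2b, the gene of the second-largest Pol II subunit, had 1954 counts without methionine and 2419 in complete medium, 1.65-fold lower (1.56 to 1.75), Polr2j was 1.55-fold lower (1.38 to 1.74), Polr2i 1.57-fold higher (1.27 to 1.93) and Polr2d 1.18-fold higher (1.07 to 1.30). The 5 subunits shared by all 3 polymerases had a median of 0.16 with none past 1.5-fold, from Polr2l and Polr2f, 1.18-fold and 1.15-fold lower, to Polr2k and Polr2h, 1.24-fold and 1.49-fold higher. Whether these lists differ from each other was not tested, since there is no replicate.

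Lists for steps after or beside assembly had medians below 0. In the RNA exosome and rRNA end trimming list the median was -0.15, with 1 of 16 higher and 1 lower. Each was 6.25%, against 15.7% higher and 18.0% lower among all compared genes. Eri1, which encodes the nuclease that trims 5.8S rRNA, had 1482 counts without methionine and 2176 in complete medium, 1.96-fold lower (1.83 to 2.09), and the exosome subunit genes Exosc8 and Exosc4 were 1.47-fold lower (1.37 to 1.56) and 1.505-fold higher (1.36 to 1.67). Exosc4, the 1 gene called higher, lay just past the threshold and fell below it when library totals were used for scaling, at 0.58 on the log2 scale. Isg20l2, a 5.8S-processing nuclease gene, was 1.30-fold higher (1.22 to 1.39). Among 5S RNP genes, chaperones and importins the median was -0.23 with 2 of 12 lower, or 16.7%, against 18.0% of all compared genes. The 2 lower genes were Gtf3a and Ipo5. Gtf3a, the gene of the 5S rRNA-binding factor TFIIIA, was 1.81-fold lower (1.55 to 2.11). Ipo5, an importin gene, was at 453 CPM without methionine and 793 CPM in complete medium, 1.75-fold lower (1.70 to 1.80). The importin gene Ipo4 was 1.35-fold higher (1.24 to 1.48) and Rpl5, the gene of a 5S-binding ribosomal protein, 1.30-fold higher (1.28 to 1.32), though pseudogenes of ribosomal protein genes could take part of its reads.

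**Figure D3:**
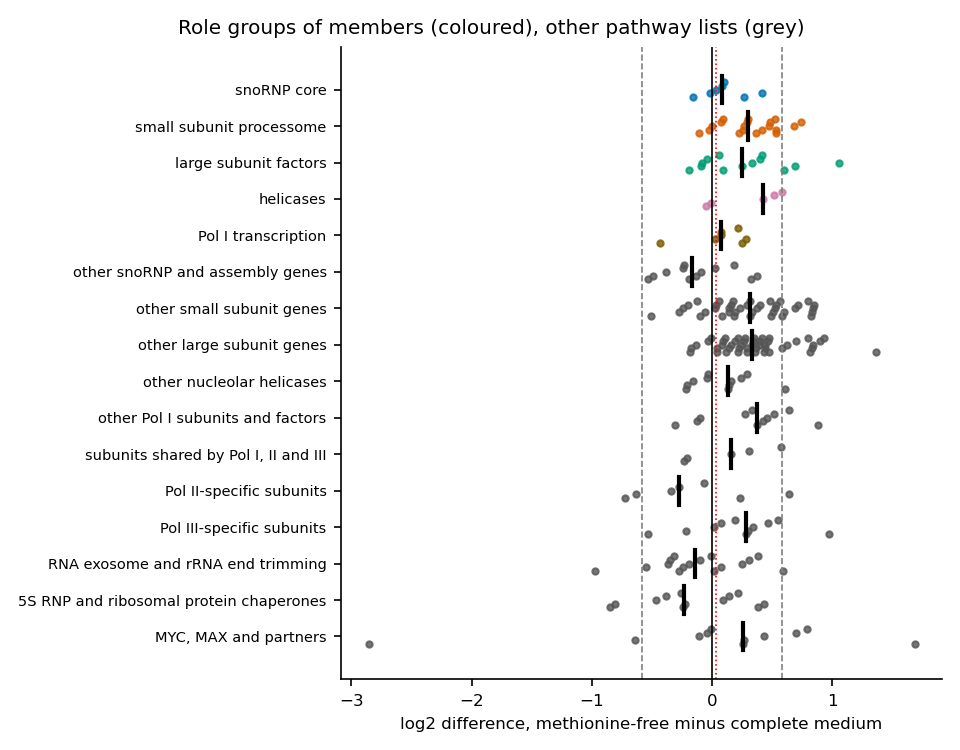
Log2 difference, methionine-free minus complete medium, for each gene of the 5 role groups (coloured) and of the 11 other pathway lists (grey), 1 library per medium. Black bars are medians, dashed lines mark 1.5-fold and the red dotted line the median of all compared genes; medians run from -0.28 for the Pol II-specific subunits to 0.43 for the helicases.

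Genes of the MYC network, which controls many ribosome biogenesis genes, stood on both sides. Of 11 compared, 3 were at least 1.5-fold higher and 2 lower, or 27.3% and 18.2%, against 15.7% and 18.0% of all compared genes. Myc itself, named after its value was seen, had 25632 counts (1308 CPM) without methionine and 11828 (805 CPM) in complete medium, 1.62-fold higher (1.59 to 1.66). Mga and Mxd4, which encode MAX partners held to repress transcription, were 1.73-fold (1.64 to 1.82) and 3.23-fold higher (2.65 to 3.95). Other MAX partners held to repress transcription went the other way. Mxd3 had 17 counts without methionine and 95 in complete medium, 7.46-fold lower (4.42 to 13.3), and Mxi1 was 1.56-fold lower (1.40 to 1.74). Max was level, at 129 CPM without methionine and 133 CPM in complete medium.

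**Figure D4:**
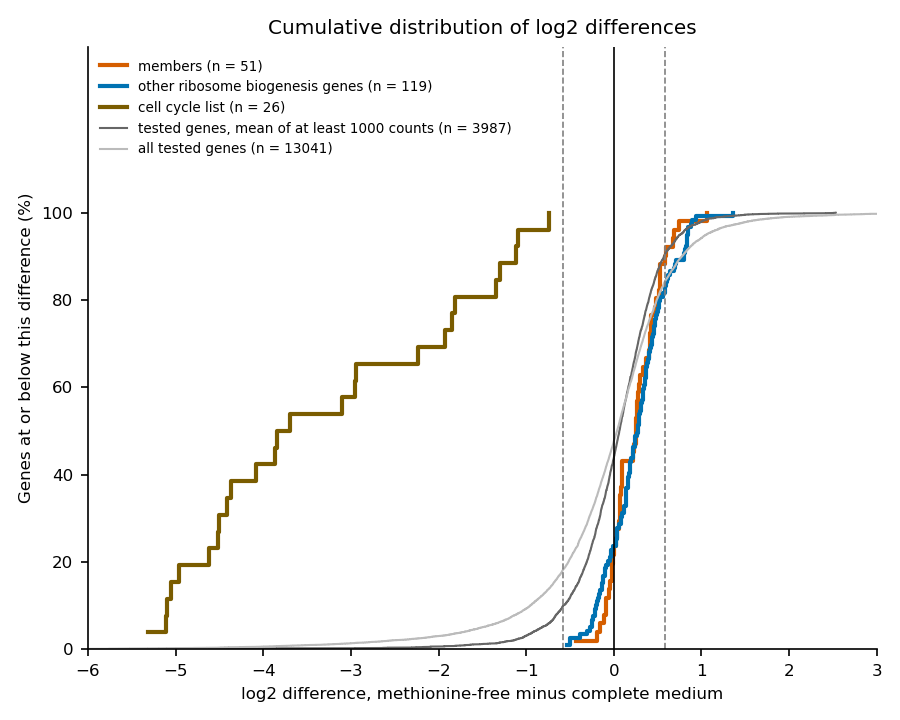
Share of genes (vertical, %) at or below each log2 difference, methionine-free minus complete medium (horizontal), for the 51 ribosome biogenesis genes, the 119 other ribosome biogenesis genes, the 26 cell cycle genes, the abundant genes and all 13041 compared genes. Dashed lines mark 1.5-fold; the curves of both ribosome biogenesis sets start right of the lower dashed line, while the whole cell cycle curve lies left of it.

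The start regions of these genes were searched for the E-box CACGTG, the motif that MYC and MAX bind. Classical MYC targets include genes with this motif, but holding it does not make a gene a MYC target. The search was chosen because nucleolar genes were held to move as a set, with earlier results of these data known. RefSeq windows (GRCm38.p6) from 250 bases before to 50 bases after a gene's start were at hand for 47 of the 52 genes. The motif is the same on both strands. It occurred in windows of 10 of the 47 genes, or 21.3%, against 11.9% of 9267 compared genes with a window, 13.8% of 3174 abundant genes, and 18 of the 94 other ribosome biogenesis genes with a window. In 8 of the 10 it began after the start, between bases 3 and 41 of the transcribed part, which held for 17.0% of the 47 genes. It held for 8.51% of the 94 other ribosome biogenesis genes, 2.30% of abundant genes and 1.94% of the compared genes with a window. That split by position was made after the windows were seen, and a match of letters is not a measured binding site. The 30 bases around the motif are given for 9 of the genes, 5′ to 3′ on the gene's strand, with the E-box in capitals, to show the motif in its setting.
Pes1, chr11:3963965-3963994, plus strand: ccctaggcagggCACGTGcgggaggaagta
Utp4, chr8:106893643-106893672, plus strand: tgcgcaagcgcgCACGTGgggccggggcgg
Wdr43, chr17:71616220-71616249, plus strand: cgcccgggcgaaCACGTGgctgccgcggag
Tsr1, chr11:74898092-74898121, plus strand: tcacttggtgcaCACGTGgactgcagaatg
Ltv1, chr10:13193092-13193121, minus strand: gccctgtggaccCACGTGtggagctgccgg
Utp20, chr10:88826765-88826794, minus strand: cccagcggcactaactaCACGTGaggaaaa
Pno1, chr11:17211540-17211569, minus strand: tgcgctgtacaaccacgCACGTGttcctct
Mybbp1a, chr11:72441347-72441376, plus strand: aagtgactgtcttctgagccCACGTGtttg
Utp18, chr11:93885769-93885798, minus strand: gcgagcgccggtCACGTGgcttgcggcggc

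Rrn3 was the only one of the 10 with a pair of E-boxes, both before its start, the first at base -215 and the other at base -48. Its 250 bases before the start are shown because this gene controls Pol I initiation.
Rrn3, chr16:13780449-13780698, plus strand: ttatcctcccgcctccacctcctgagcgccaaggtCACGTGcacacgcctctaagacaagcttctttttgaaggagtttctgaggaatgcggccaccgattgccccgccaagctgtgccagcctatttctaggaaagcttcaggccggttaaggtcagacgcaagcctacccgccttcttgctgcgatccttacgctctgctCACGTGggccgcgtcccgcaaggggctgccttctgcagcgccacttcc

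**Figure D5:**
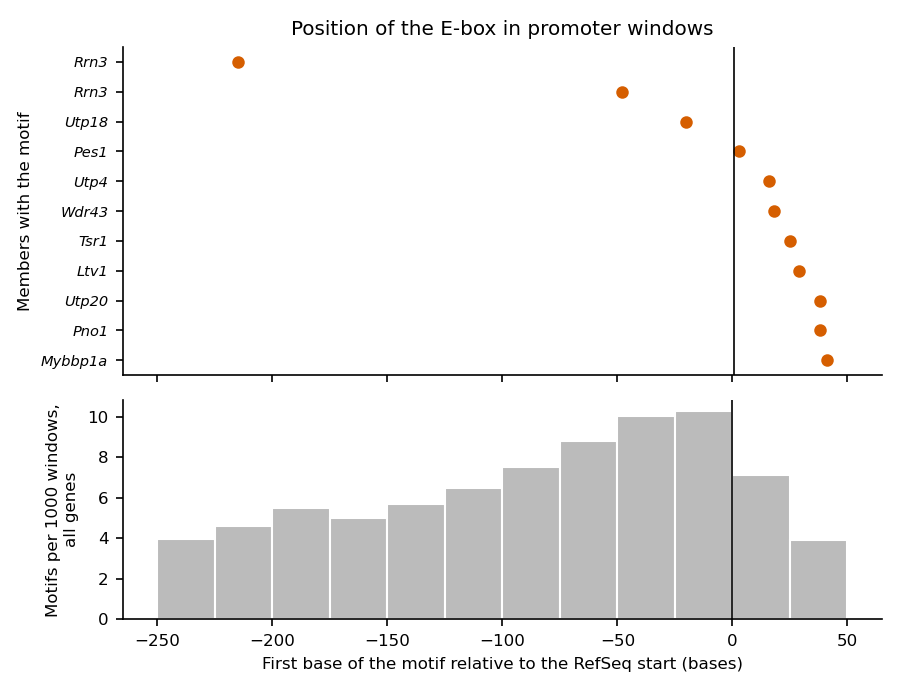
Top, first base of each E-box (horizontal, bases from the RefSeq start) in the promoter windows of the 10 genes that hold one; the vertical line marks the start. Bottom, E-boxes per 1000 windows over all 32851 windows of the mouse table in bins of 25 bases; the bar is highest at 10.3 in the bin just before the start, while 8 of the 11 points lie after it.

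Among the 47 genes with a window 21.3% held an E-box. At least 1.5-fold higher were 15.7% of all compared genes and 9.43% of abundant genes. The 10 genes with an E-box had a median log2 difference of 0.31, from -0.03 for Utp18 to 0.53 for Pno1, and none was past 1.5-fold. The 36 compared genes with a window and no E-box had a median of 0.22, from -0.16 for Nop10 to 1.06 for Noc3l, and 4 were past 1.5-fold. Of the 5 genes past 1.5-fold, Noc3l, Utp15, Bysl and Nop16 held none in their windows, and no window was at hand for Rrs1. With so few genes past 1.5-fold, these counts do not set genes with and without the motif apart. Whether genes with and without the motif differ was not tested. The binding motif of NRF1, a regulator of many housekeeping genes, occurred in the window of 1 of the 47 genes, Pno1, or 2.13%, against 2.50% of compared genes with a window.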

How the data were processed

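The deposited table holds raw read counts per Ensembl gene, whole numbers with no scaling, for 2 libraries, as the file header and values show; the deposited counts were aligned to mm10, per the submitters' processing notes. Per the labels' protocols, total RNA was taken with TRIzol and each library came from either of 2 kits, for whole RNA or for mRNA; which one was used is not recorded. Aligner, counter and annotation: not given in the sources used here. Of 54532 identifiers 54495 matched GENCODE M21 (GRCm38, the mm10 assembly), whose 1-based gene spans and exon lengths were used.

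Counts were scaled with TMM (edgeR 4.0.16, R 4.3.3). Log2 differences used a prior count of 0.5 over the 13041 genes averaging 10 counts or more, and calls were made on them at 1.5-fold; printed folds are ratios of scaled counts without the prior count, with exact conditional 95% intervals (scipy 1.17.1, Python 3.11.15). A count of 0 was given a limit of 3 counts. Reads carry no stated molecular identifiers, so intervals cover counting error only. Near-identical pseudogenes were found with minimap2 2.31-r1302. The log2 differences, intervals and calls were tested on simulated counts with counting error only, scaled by library totals. That test did not cover TMM, gene matching, the pseudogene and promoter steps or the spread between cultures. No test across replicates was possible.

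The genes and lists were chosen with earlier results of these data known. Values were to be given in full for Nop56, Ncl, Npm1, Polr1a, Polr1b, Ubtf and Rrn3, for all genes of the smaller role groups, for the 4 highest and 4 lowest of the larger ones, and for the 2 highest and 2 lowest of each pathway list, with a mean of at least 50 counts. Other genes were named after their values were seen. Alternatives covered normalization (DESeq2 1.42.0 size factors among them), centring, count minimum, prior count, fold and gene overlaps.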

Additional observations from a re-analysis of the deposited data

How the results depend on the processing

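Under the other normalizations, centring, count minima, prior count of 2 and the sets left without overlapping, small RNA-hosting or pseudogene-bearing genes or without Ncl and Npm1, the ribosome biogenesis genes' median log2 difference stayed between 0.21 and 0.26, 0 of them were at least 1.5-fold lower, and 4 to 6 were at least 1.5-fold higher. The share of genes with a ratio above 1 was not repeated under these settings, and genes near level changed side. On centring, Nolc1, Polr1b and Riok1 fell just below level, at -8.9e-05, -0.015 and -0.034 on the log2 scale. With upper-quartile scaling Ddx56 rose just above level, at 0.007. Nop16 was no longer past 1.5-fold on centring, at 0.56 on the log2 scale, and without mitochondrial, histone and non-coding genes in the scaling, at 0.58. Ddx10 was past 1.5-fold with upper-quartile scaling, at 0.59. With 2-fold as the call, 1 of the ribosome biogenesis genes was higher, against 5 at 1.5-fold, and of the other pathway genes 2 were higher and 1 lower, against 27 and 7 at 1.5-fold. Among genes averaging 1000 counts or more, 3 other pathway genes were at least 1.5-fold lower, since fewer genes were compared. Of 480 repeats of the named genes' log2 differences, 475 moved by less than their counting interval and 5 by more, all on centring. The settings without pseudogene-bearing genes, without Ncl and Npm1, and with the minimum of 1000 counts were chosen after seeing the data. No paired analysis was possible because there was 1 library per medium. The depth allows ratios of these genes to be read to within about 0.08 on the log2 scale, the median half-width of the counting intervals, but says nothing of the spread between cultures.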
